A study of Mus musculus with 17 samples.

Results

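The genes described here are 38 mouse genes that supply amino acids, one-carbon units and charged tRNAs for growth, out of 53679 genes in the count tables. They were listed by function, with earlier results of these data known, and all 38 were found by Ensembl identifier. The list holds 8 amino acid transporters, 6 enzymes of amino acid synthesis, 5 enzymes of one-carbon metabolism, 5 genes of the ATF4 stress response and 14 cytosolic aminoacyl-tRNA synthetases. The levels were measured by total RNA sequencing in CD8+ T cells of C57BL/6 mice that were knockout (KO) or wild type (WT) for Cblb, which encodes the E3 ubiquitin ligase Cbl-b, a brake on T cell activation. Purity was over 99% CD8+ by the protocol. Cells were left unstimulated, received the antibody anti-CD3, which triggers signalling from the T cell receptor, or received anti-CD3 with anti-CD28, the antibody to the costimulatory receptor. Stimulation lasted 12 h. The sample titles give no time for unstimulated cells, whose count columns are headed D0. No library is labelled as unstimulated after 12 h. That makes 6 groups, KO and WT in each state. Each has 3 libraries, but for the WT group with both antibodies only replicates 2 and 3 were analysed here, so it has 2. How the knockout allele was made, the age of the mice, and whether replicates came from separate animals are not in the labels, so a p-value here reflects the spread among the libraries, and that spread may be technical.

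Activated T cells are known to enlarge before they divide, and they take up large neutral, cationic and small neutral amino acids through membrane carriers to do so. Serine made from glucose or taken up passes its side-chain carbon to folate, and folate-bound one-carbon units are used to build purines and thymidylate. Aminoacyl-tRNA synthetases join each amino acid to its tRNA for protein synthesis. Shortage of amino acids leaves tRNAs uncharged, which activates the kinase GCN2 and raises translation of the transcription factor ATF4, and ATF4 is known to bind C/EBP-ATF response elements (CARE) near genes of transport, synthesis and charging. Signalling through mTORC1 and the transcription factor MYC is known to act on many of the same genes in T cells.

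Total counts were 16635826 to 38269033 in 16 libraries and 160059285 in KO unstimulated replicate 2. Levels are in CPM, which divide each read count by the scaled total of its library, and group levels are mean ± SD with the n of the group given above. Cblb itself had 78.4, 79.2 and 83.8 CPM in KO cells given anti-CD3, against 190.1, 180.4 and 190.0 CPM in WT cells, and KO libraries lay below WT libraries in every state, although Cblb RNA remained in them. The 7 CD8 T cell markers (Cd3d, Cd3e, Cd3g, Cd8a, Cd8b1, Lck and Zap70) summed to 1819 to 3798 CPM per library. Summed markers of CD4 T, B, myeloid, dendritic and NK cells, and of erythroid cells and platelets, each stayed at or under 27.2 CPM. None of those marker genes was called in KO against WT cells given anti-CD3, and 2 of the CD8 T cell markers were lower. Markers too scarce to be tested, such as Pf4 and Ppbp with no counts in any library, could not be called. GC-rich and GC-poor genes also moved apart between libraries. This tilt, taken as the median log2 deviation of expressed GC-rich genes (56% or more) less the median of GC-poor ones (40% or less), ran from -1.15 in KO both-antibody replicate 3 to 1.15 in KO unstimulated replicate 2. Results that shift when this tilt is corrected are given with both values.

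Promoter sequences from RefSeq on GRCm38.p6 were searched for a CARE core, written TGATGNAA, on both strands, from 250 bases before to 50 bases after each start site. A window existed for 30 of the 38 members, and 11 of these (36.7%) held the core, against 4.51% of all 27025 genes with a window. A match describes the letters only, and several members are known ATF4 targets, so the share is no independent evidence. The 250 bases upstream of Asns, Chac1 and Slc7a11 are printed because these 3 members had the largest log2 responses to anti-CD3 in KO cells. In KO unstimulated libraries Chac1 had 0, 7 and 1 counts and Slc7a11 had 0, 4 and 0. The responses of Chac1 and Slc7a11 therefore rest on few reads, and their rank is uncertain. Capitals mark the CARE core on either strand (chr6:7693210-7693459, minus strand for Asns; chr2:119350992-119351241, plus strand for Chac1; chr3:50443614-50443863, minus strand for Slc7a11).
Asns: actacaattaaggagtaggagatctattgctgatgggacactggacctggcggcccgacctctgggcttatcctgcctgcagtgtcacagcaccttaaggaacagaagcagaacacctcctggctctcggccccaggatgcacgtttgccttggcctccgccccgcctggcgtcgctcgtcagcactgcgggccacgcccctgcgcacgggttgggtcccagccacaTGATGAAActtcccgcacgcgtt
Chac1: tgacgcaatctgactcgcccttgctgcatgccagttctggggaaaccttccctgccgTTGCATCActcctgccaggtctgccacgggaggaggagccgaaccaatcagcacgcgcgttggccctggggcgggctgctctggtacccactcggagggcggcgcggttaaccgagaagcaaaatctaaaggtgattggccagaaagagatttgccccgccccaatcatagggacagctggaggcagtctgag
Slc7a11: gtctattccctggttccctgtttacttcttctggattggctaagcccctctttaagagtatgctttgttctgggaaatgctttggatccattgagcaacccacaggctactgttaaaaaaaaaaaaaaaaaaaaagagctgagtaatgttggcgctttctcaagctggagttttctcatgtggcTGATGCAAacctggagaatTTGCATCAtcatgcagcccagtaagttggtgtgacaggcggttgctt
The Asns core ends 16 bases before the start site, while the Chac1 core lies 186 to 193 bases before it on the opposite strand, where it reads TTGCATCA. Slc7a11 has 2 cores on opposite strands, 59 to 66 and 40 to 47 bases before the start.

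Of the other members with a core, 7 are shown as the core in capitals with 10 bases on either side, read so that the core runs TGATGNAA. They let the letters around the core be compared between a transporter, a proline enzyme, a pseudokinase and 4 synthetases.
Slc1a4: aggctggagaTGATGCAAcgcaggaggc
Pycr1: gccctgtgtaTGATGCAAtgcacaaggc
Trib3: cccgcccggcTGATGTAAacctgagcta
Gars: gcccggtgcaTGATGAAAtagcgcagcc
Iars: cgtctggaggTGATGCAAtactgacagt
Tars: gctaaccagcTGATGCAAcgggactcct
Yars: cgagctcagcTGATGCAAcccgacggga
In these 7 matches the open base of the core was C in Slc1a4, Pycr1, Iars, Tars and Yars, A in Gars, and T in Trib3. The matches lie from 103 bases before the start site, in Pycr1, to 22 bases after it, in Trib3. None of the 5 one-carbon members held a core in its window. The E-box CACGTG, the palindrome bound by MYC with its partner MAX, was found in Aldh18a1, Aars, Iars and Tars, which is 13.3% of the members with a window, against 8.09% of all genes.

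All 38 members passed the filter on low counts, which kept 16246 genes. Asns, Chac1, Pycr1, Slc7a11 and Trib3 were under the filter level in some libraries and passed through the groups where they were higher. Chac1 was over it in all 3 KO anti-CD3 and all 3 KO both-antibody libraries, and otherwise in 1 WT anti-CD3 library. Slc7a11 was over it in 2 KO anti-CD3 libraries only. For these 2 members higher values in KO cells are no independent support, because the filter favoured them. Levels per kilobase of exon spread widely between members. Atf4 had the highest mean over the 6 groups, 76.0 CPM per kb, followed by Gars at 42.7 and Slc1a5 at 37.4, and Slc7a11 had the lowest, 0.0135 CPM per kb. The mean CPM was highest in KO cells given anti-CD3 for 34 of the 38 members and lowest in WT unstimulated cells for 27. The other lowest groups were WT cells given both antibodies for 7 members, KO unstimulated cells for 3 and WT cells given anti-CD3 for 1. Added over the 38 members, the libraries held 4049, 3971 and 4786 CPM in KO cells given anti-CD3, against 2918, 2848 and 2748 CPM in WT cells given anti-CD3. The 2 groups did not overlap in this sum.

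**Figure D1:**
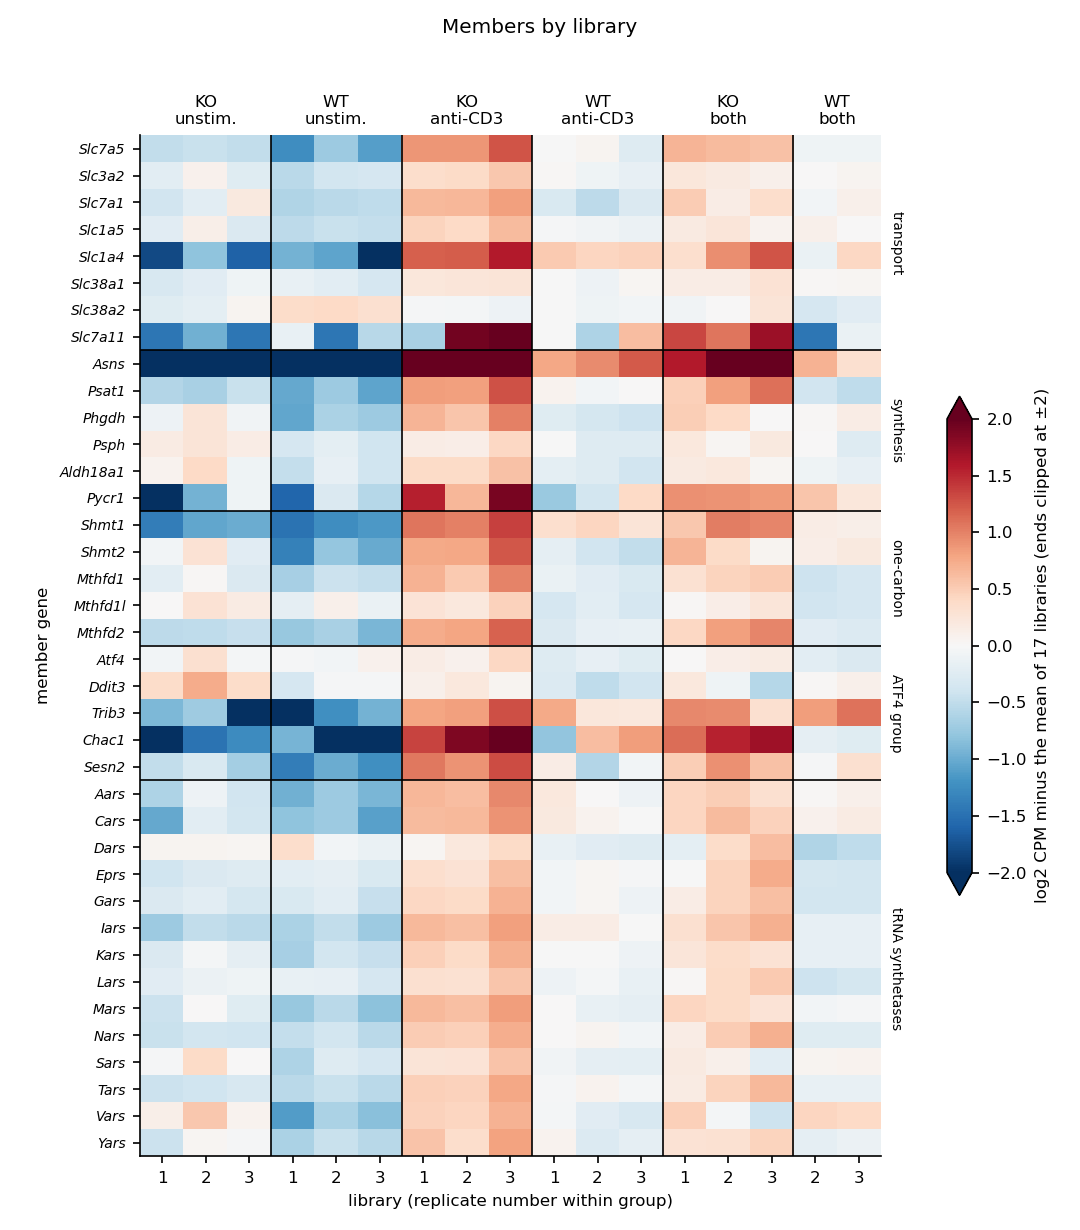
Each row is a member and each column a library, in KO and WT pairs of groups for unstimulated, anti-CD3 and both-antibody cells. Colour is the log2 CPM of the library minus the mean of the 17 libraries, clipped at ±2, and the 3 KO anti-CD3 columns are above the mean for most members while the WT unstimulated columns are mostly below it.

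**Figure D2:**
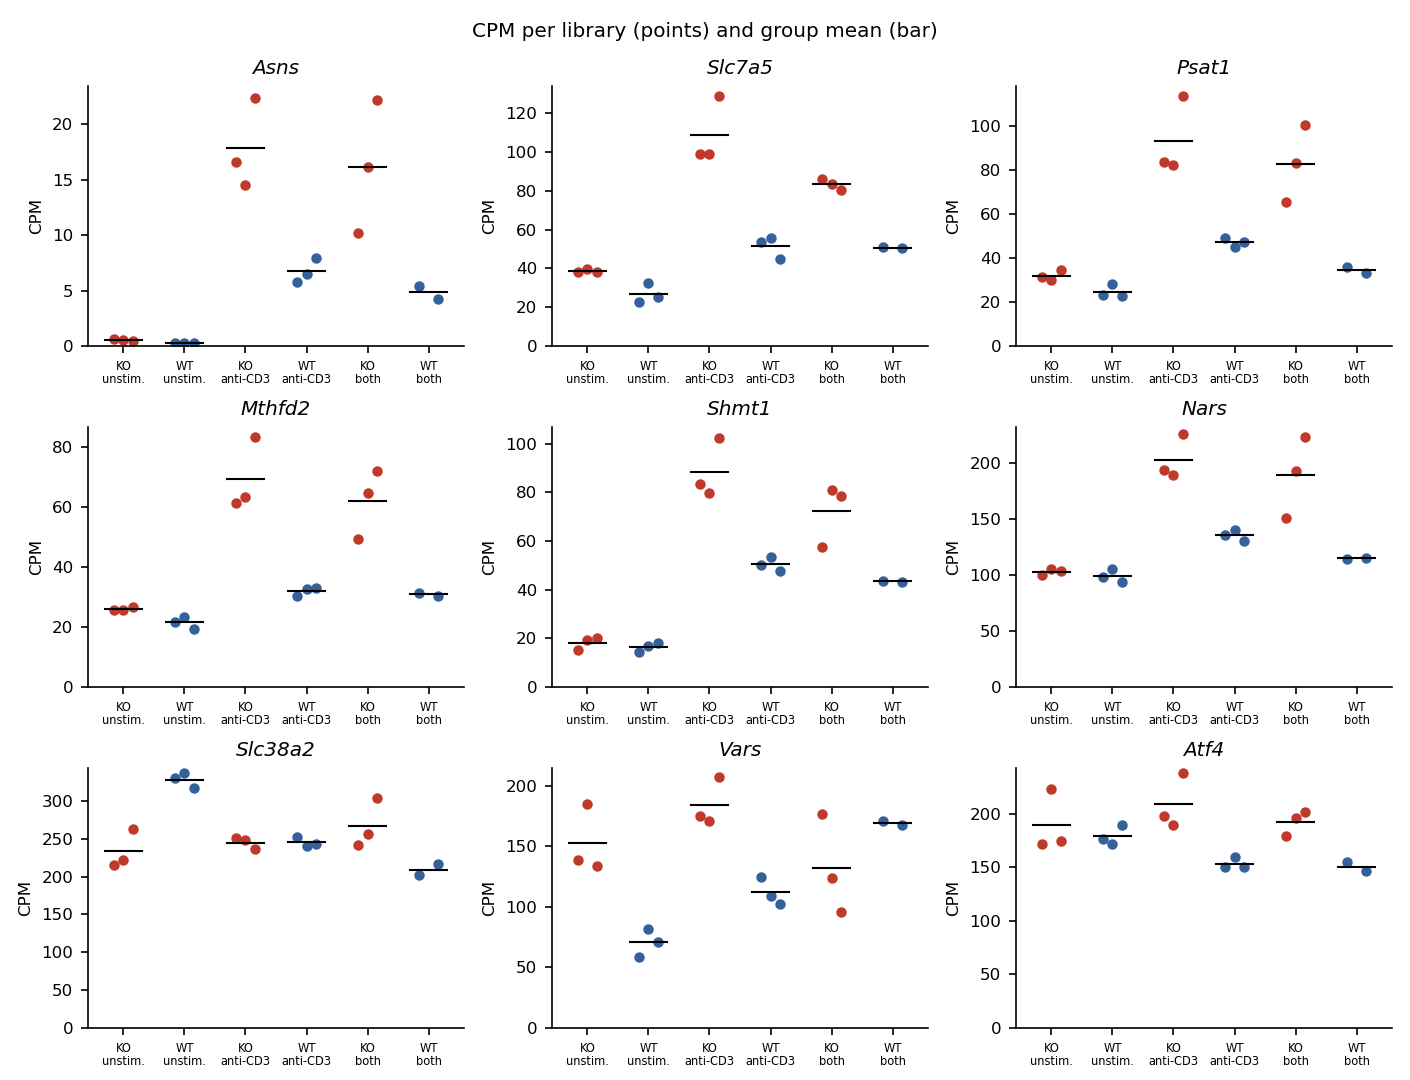
CPM of 9 members in each library (points, red for KO and blue for WT), with bars at group means, from unstimulated to both-antibody cells. KO libraries given anti-CD3 lie above WT libraries for Asns, Slc7a5, Psat1, Mthfd2, Shmt1, Nars, Vars and Atf4, and overlap them for Slc38a2.

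The design first asks how KO and WT cells differ under the same stimulation. With anti-CD3 alone, 34 of 38 members were higher in KO cells and 0 were lower, while 15.3% of all genes tested were called, 10.5% higher and 4.8% lower. The median log2 fold change of the members was 0.68, that of all genes tested 0.04. With the GC correction 33 were higher and 0 lower, with a median of 0.64, where 21.5% of all genes tested were called, 16% higher and 5.46% lower. In 36 members every KO library was above every WT library and in 0 every one was below, against 27.4% and 17.6% of all genes. Calls use adjusted p under 0.05 by edgeR's quasi-likelihood test. Because these are bulk samples, fewer cells of a type and less RNA per cell cannot be told apart. The tilt was 0.21, 0.10 and 0.24 in KO libraries and -0.11, -0.41 and -0.41 in WT libraries given anti-CD3, and those groups did not overlap. Leaving out KO anti-CD3 replicate 3, which was above the other 2 KO replicates for 36 of 38 members, left 22 members higher. The share of all genes called in that fit is not given. The summed markers whose genotypes did not overlap in this state were 1904 to 2002 CPM in KO libraries and 2039.9 to 2079.8 CPM in WT libraries for CD8 T cell markers.

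In KO cells given anti-CD3, 6 of the 8 transporters were higher than in WT cells, with a median log2 fold change of 0.73 over the 8. Slc7a5 (chr8:121881150-121907694), the light chain of the leucine transporter LAT1, had 99.0, 98.8 and 129 CPM in the KO libraries, against 53.8, 55.9 and 44.9 CPM in the WT libraries given anti-CD3. The KO libraries were all above the WT libraries, and the log2 fold change was 1.08 ± 0.13 (SE), adjusted p = 7.04e-05. Its heavy chain partner Slc3a2 had 94.4, 96.6 and 107 CPM in the KO libraries, against 75.6, 69.6 and 66.3 CPM in the WT libraries, again without overlap, with a smaller log2 fold change of 0.50 ± 0.10, adjusted p = 0.00227. The cationic carrier Slc7a1, which brings in arginine and lysine, had 102, 104 and 116 CPM in the KO libraries, against 53.3, 45.6 and 53.9 CPM in the WT libraries. Its log2 fold change of 1.08 ± 0.13, adjusted p = 7.6e-05, was close to that of Slc7a5. These 3 pairs of groups did not overlap. Slc1a5, which exchanges glutamine and other neutral amino acids, was 214 ± 19.2 CPM in KO cells and 145 ± 5.22 CPM in WT cells, higher by 0.56 on the log2 scale (adjusted p = 0.00139). Slc1a4, a carrier of alanine, serine and cysteine, was 7.51 ± 1.18 CPM in KO cells and 4.07 ± 0.129 CPM in WT cells and was also called higher, and 8 of 27 alternative fits lost that call. Slc38a1, a sodium-coupled glutamine carrier, was higher by 0.27 (adjusted p = 0.0351), and 13 of 27 alternatives lost the call.

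Slc38a2, the system A carrier SNAT2, and Slc7a11 were the 2 transporters not called. Given anti-CD3 it had 251, 248 and 236 CPM in the KO libraries, against 252, 240.0 and 244 CPM in the WT libraries. These ranges overlapped and the log2 fold change was -0.00071 ± 0.09, adjusted p = 0.998. Without stimulation it had 215, 222 and 263 CPM in the KO libraries, against 329.8, 337 and 317 CPM in the WT libraries, so every KO library was lower, and the log2 fold change was -0.49 ± 0.09 (adjusted p = 0.00653). It was the one member called lower in unstimulated KO cells, and with the GC correction its log2 fold change was -0.25, adjusted p = 0.029. With both antibodies it had 242, 256 and 304 CPM in the KO libraries, against 202 and 217 CPM in the WT libraries, higher by 0.35 ± 0.11 (adjusted p = 0.0328), which the GC correction put at 0.13, adjusted p = 0.254. Slc7a11, the cystine carrier xCT, had few reads in any group, with 1, 11 and 29 counts in KO cells given anti-CD3, against 2, 2 and 6 counts in WT cells. Its counts overlapped between genotypes there, and the log2 fold change of 2.01 ± 0.81 had an adjusted p of 0.103.

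All 6 synthesis enzymes were above WT levels in KO cells given anti-CD3 by the test, with a median log2 fold change of 1.05. Asparagine synthetase, Asns (chr6:7675169-7693254), had 16.6, 14.6 and 22.4 CPM in the KO libraries, against 5.80, 6.49 and 7.91 CPM in the WT libraries. The lowest KO library held more than the highest WT library, and the log2 fold change was 1.41 ± 0.23, adjusted p = 0.000731. The serine branch leads from 3-phosphoglycerate to serine in 3 enzymatic steps by Phgdh, Psat1 and Psph. Phgdh, the first of them, had 114, 105 and 144 CPM in the KO libraries, against 60.0, 55.9 and 53.4 CPM in the WT libraries. It was higher by 1.10 ± 0.15 (adjusted p = 0.000168) with no overlap. Psat1, the aminotransferase of the pathway, had 83.8, 82.3 and 114 CPM in the KO libraries, against 49.2, 44.9 and 47.3 CPM in the WT libraries. Its log2 fold change was 0.99 ± 0.15, adjusted p = 0.00034, with KO libraries all above WT libraries. Psph, the phosphatase of the last step, was 21.4 ± 2.38 CPM in KO cells and 16.1 ± 1.61 CPM in WT cells, higher by 0.42 (adjusted p = 0.0202), and it shares 452 exon bases with Cct6a on the opposite strand, so its counts are uncertain. For proline, Aldh18a1, which makes the glutamate semialdehyde precursor, was higher by 0.74, at 81.3 ± 6.82 CPM in KO cells and 48.8 ± 3.11 CPM in WT cells. Pycr1, the mitochondrial reductase of the last step, was scarce, with 1.94, 1.01 and 2.48 CPM in the KO libraries, against 0.341, 0.465 and 0.840 CPM in the WT libraries, and was higher by 1.71 ± 0.52 (adjusted p = 0.0326).

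With anti-CD3 all 5 one-carbon enzymes were higher in KO cells, with a median log2 fold change of 0.98. Shmt1 and Shmt2 split serine into glycine and a folate-bound carbon, in cytosol and mitochondria. Shmt2 (chr10:127517123-127522444) had 120.0, 121 and 169 CPM in the KO libraries, against 62.9, 54.8 and 50.8 CPM in the WT libraries. The KO values were all above the WT values, with a log2 fold change of 1.29 ± 0.18, adjusted p = 0.000319. Shmt1 had 83.3, 79.8 and 102 CPM in the KO libraries, against 50.2, 53.2 and 47.6 CPM in the WT libraries, higher by 0.82 ± 0.14 (adjusted p = 0.000873), and it shares 184 exon bases with Smcr8 on the opposite strand. Mthfd2 (chr6:83305691-83325908), the mitochondrial dehydrogenase and cyclohydrolase of the pathway, had 61.4, 63.3 and 83.6 CPM in the KO libraries, against 30.2, 32.9 and 33.1 CPM in the WT libraries. It was higher by 1.12 ± 0.13 (adjusted p = 7.81e-05), and with both antibodies it was again higher, with 49.3, 64.7 and 72.2 CPM in the KO libraries, against 31.3 and 30.5 CPM in the WT libraries. Neither comparison showed overlap, and the log2 fold change with both antibodies was 1.01 ± 0.15, adjusted p = 0.00222. Mthfd1, the cytosolic enzyme of the same steps, was higher by 0.98 with anti-CD3, at 119 ± 20.2 CPM in KO cells and 60.7 ± 3.68 CPM in WT cells. Mthfd1l, which releases formate from mitochondria, was higher by 0.61, at 91.9 ± 8.92 CPM in KO cells and 60.2 ± 3.11 CPM in WT cells.

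With anti-CD3, 4 of 5 genes of the ATF4 group were higher in KO cells, with a median log2 fold change of 0.60. Atf4 mRNA had 198, 189.8 and 238 CPM in the KO libraries, against 150.3, 159.5 and 151 CPM in the WT libraries given anti-CD3, without overlap and higher by 0.44 ± 0.11 (adjusted p = 0.00917). With the GC correction the log2 fold change was 0.26, adjusted p = 0.165, and ATF4 is known to be set largely by translation, which these data do not measure. Chac1, a glutathione-degrading enzyme, had 0.727, 1.07 and 1.76 CPM in the KO libraries, against 0.114, 0.413 and 0.490 CPM in the WT libraries. All 3 KO libraries were above the WT libraries in CPM, on 15 to 66 counts in KO libraries and 2 to 16 in WT libraries, and the log2 fold change of 1.74 ± 0.53 had an adjusted p of 0.0334. Chac1 after the GC correction was at 1.45, adjusted p = 0.067. It passed the low-count filter through KO groups, so its call, counted among the members called higher, is no independent support. Sesn2, a leucine-binding inhibitor of mTORC1 signalling, had 8.48, 7.60 and 10.2 CPM in the KO libraries, against 4.49, 2.69 and 3.92 CPM in the WT libraries. It was higher by 1.26 ± 0.20 (adjusted p = 0.000719), without overlap. Ddit3, which encodes the stress factor CHOP, was 12.9 ± 0.712 CPM in KO cells and 9.03 ± 0.704 CPM in WT cells, with a call (adjusted p = 0.0458) that 17 of 27 alternatives lost. It shares 68 exon bases with the synthetase gene Mars on the opposite strand. Trib3, a pseudokinase that restrains the ATF4 response, had 4.65, 4.78 and 6.65 CPM in the KO libraries, against 4.55, 3.13 and 3.11 CPM in the WT libraries. KO libraries were above WT libraries, but the log2 fold change of 0.60 ± 0.31 did not pass, with adjusted p = 0.206.

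With anti-CD3, 13 of the 14 synthetases were higher in KO cells, with log2 fold changes from 0.42 in Eprs to 0.80 in Mars, and a median over the 14 of 0.58. Nars, which charges asparagine tRNA, had 193, 189 and 225 CPM in the KO libraries, against 136, 140.3 and 129.9 CPM in the WT libraries. No KO library reached down to the WT range, and the log2 fold change was 0.58 ± 0.11, adjusted p = 0.00222. Mars, the methionyl enzyme, was 102 ± 8.62 CPM in KO cells and 58.5 ± 4.13 CPM in WT cells, higher by 0.80 ± 0.11 (adjusted p = 0.00019). Iars, the isoleucyl enzyme, was 134 ± 10.7 CPM in KO cells and 88.6 ± 5.29 CPM in WT cells, higher by 0.60 ± 0.10 (adjusted p = 0.00124). Eprs, which joins glutamyl and prolyl enzymes in one protein, had the largest adjusted p of those called, with 334, 325 and 403 CPM in the KO libraries, against 256, 274 and 260.4 CPM in the WT libraries. Its KO libraries were above the WT libraries, and 13 of 27 alternatives lost the call at adjusted p = 0.0391. Dars, the aspartyl enzyme, had 110.5, 125 and 141 CPM in the KO libraries, against 97.6, 91.7 and 90.6 CPM in the WT libraries, higher in each KO library but with a log2 fold change of 0.43 ± 0.16 and adjusted p = 0.0777. The GC correction put Dars at 0.61, adjusted p = 0.00131. Gars, the glycyl enzyme and the synthetase of highest level per kilobase, was 185 ± 23.3 CPM in KO cells and 128 ± 6.13 CPM in WT cells. Called higher with adjusted p under 0.02 were also Aars, Cars, Gars, Kars, Lars, Sars, Tars, Vars and Yars. Aars shares 1326 exon bases with Exosc6 on the same strand, although Exosc6 held only 221 counts over all libraries, against 47661 for Aars.

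**Figure D3:**
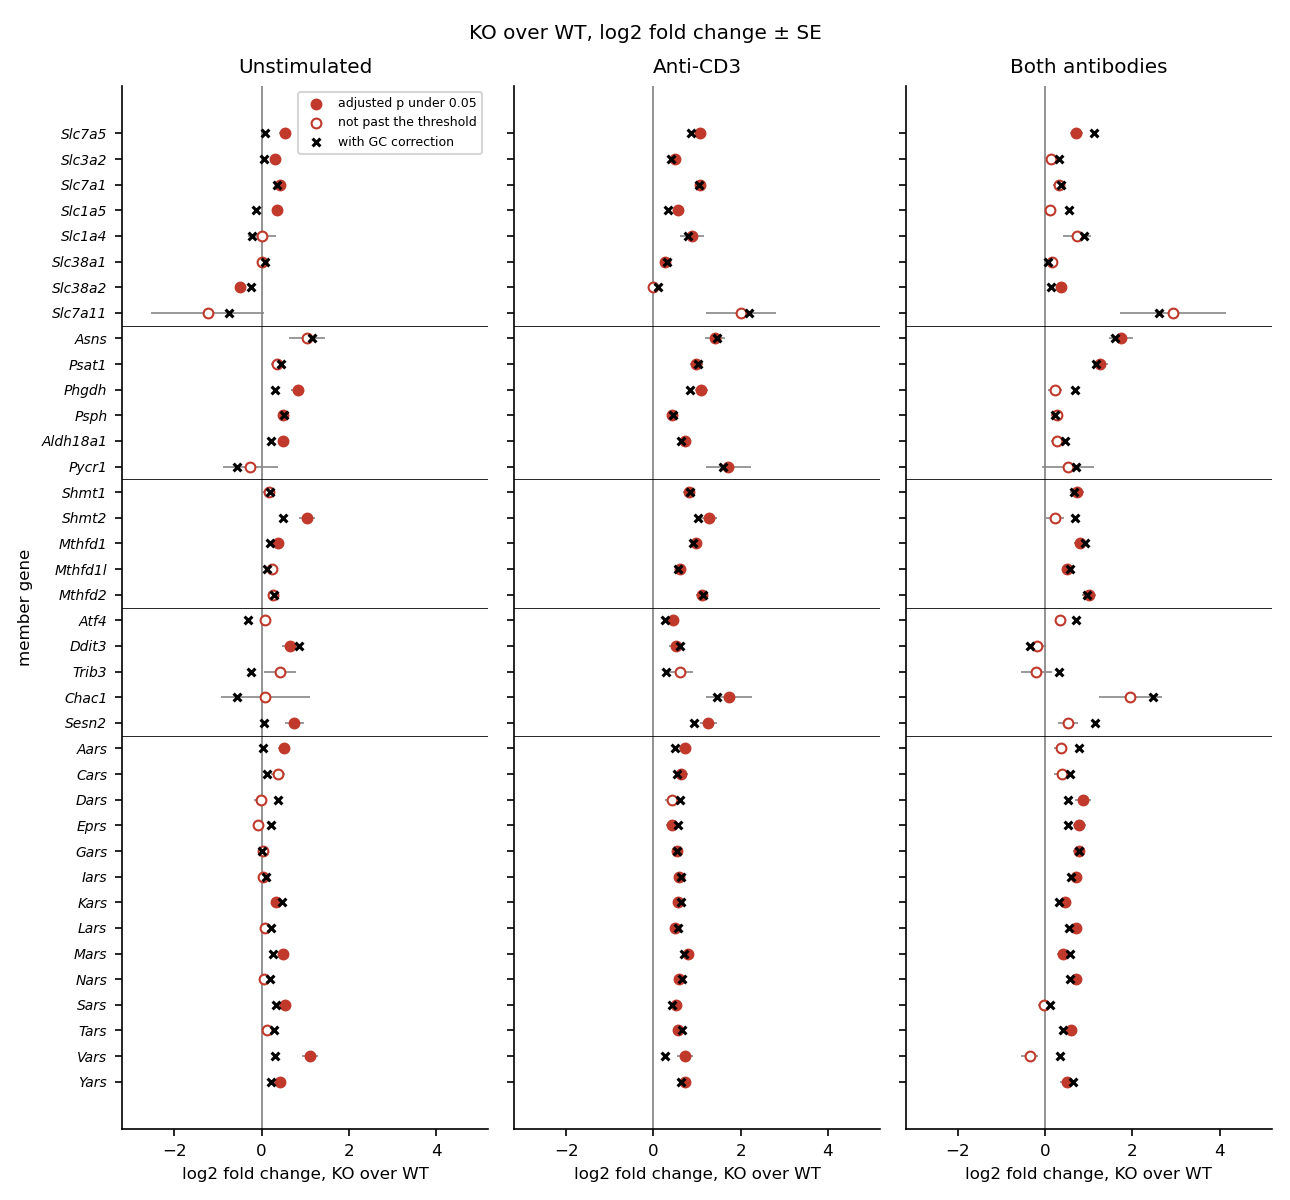
Log2 fold change of KO over WT cells ± SE for each member in the 3 states, with filled points for adjusted p under 0.05 and crosses for the value with the GC correction. With anti-CD3 the points run from -0.00071 to 2.01 and crosses stay near them, whereas in unstimulated and both-antibody cells crosses sit apart from points for GC-rich members such as Vars.

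Without stimulation the genotypes differed in fewer members, 17 higher and 1 lower in KO cells, in a comparison where 25.4% of all genes tested were called, 15.3% higher and 10.1% lower. In 21 members all KO libraries were above all WT libraries and in 1 all were below, against 21.9% and 19.5% of all genes. The median log2 fold change was 0.35 for members and -0.01 for all genes. By role, the higher members were 4 of 8 transporters, 3 of 6 synthesis enzymes, 2 of 5 one-carbon enzymes, 2 of 5 of the ATF4 group and 6 of 14 synthetases. The tilt was 0.50, 1.15 and 0.16 in KO libraries and -0.75, -0.34 and -0.31 in WT libraries, and across the 38 members the log2 fold change had a Pearson correlation with GC content of 0.60, given as a description over genes of the same libraries. After the GC correction that value was -0.18, and 7 members were higher and 1 lower, where 7.04% of all genes tested were called, 5.24% higher and 1.8% lower. Called with and without the correction were Psph, Shmt2, Ddit3, Kars, Sars and Vars as higher and Slc38a2 as lower, and Tars was called only with it. Shmt2 had 68.4, 86.9 and 60.7 CPM in the KO libraries, against 27.8, 41.7 and 35.2 CPM in the WT libraries. Its libraries did not overlap, and the log2 fold change was 1.05 ± 0.18 (adjusted p = 0.00498), or 0.50 with the correction (adjusted p = 0.0084). Vars, the valyl enzyme and the member of highest GC content at 60.9%, had 139, 185 and 134 CPM in the KO libraries, against 59.0, 81.8 and 71.1 CPM in the WT libraries. The log2 fold change of 1.12 ± 0.19 was 0.30 with the correction (adjusted p = 0.0381). Ddit3 had 15.2, 19.9 and 15.3 CPM in the KO libraries, against 9.33, 11.6 and 11.6 CPM in the WT libraries, with no overlap, a log2 fold change of 0.65 ± 0.17 and a corrected value of 0.87 (adjusted p = 0.0148). Slc7a5 had 38.2, 39.4 and 38.1 CPM in the KO libraries, against 22.7, 32.4 and 25.0 CPM in the WT libraries, called as fitted at 0.53 ± 0.13 but not with the correction, at 0.07 (adjusted p = 0.817). Leaving out KO unstimulated replicate 2 left 4 members called, and leaving out WT unstimulated replicate 1 left 5. The share of all genes called in those fits is not given, so these counts do not show a loss particular to the members. Without stimulation the marker sums that separated the genotypes were 3407 to 3798 CPM in KO libraries and 3224 to 3286 CPM in WT libraries for CD8 T cell markers, and 9.26 to 11.8 CPM in KO libraries and 7.30 to 8.40 CPM in WT libraries for dendritic cell markers.

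With both antibodies 18 members were higher and 0 lower in KO cells, where 16.1% of all genes tested were called, 9.84% higher and 6.3% lower. The median log2 fold change was 0.49 for members and 0.00024 for all genes, and in 30 members the KO libraries were all above the WT libraries and in 0 all below, against 24.6% and 24.4% of all genes. By role, the higher members were 2 of 8 transporters, 2 of 6 synthesis enzymes, 4 of 5 one-carbon enzymes, 0 of 5 of the ATF4 group and 10 of 14 synthetases. The GC correction gave 28 higher and 0 lower, with a member median of 0.58, where 17.1% of all genes tested were called, 9.43% higher and 7.69% lower. Psat1 had 65.5, 83.0 and 100.2 CPM in the KO libraries, against 35.9 and 33.0 CPM in the WT libraries. It was higher by 1.27 ± 0.17 (adjusted p = 0.00126), with every KO library above both WT libraries. Asns had 10.2, 16.1 and 22.2 CPM in the KO libraries, against 5.45 and 4.21 CPM in the WT libraries, higher by 1.74 ± 0.28 (adjusted p = 0.00243). Slc7a5, with 85.9, 83.6 and 80.4 CPM in the KO libraries, against 50.8 and 50.7 CPM in the WT libraries, was higher by 0.71 ± 0.14 (adjusted p = 0.00624). These 3 did not overlap between genotypes. Among the synthetases called higher were Dars at 0.86 ± 0.18, Eprs at 0.79 ± 0.15 and Gars at 0.78 ± 0.13. Vars was not called, with 177, 124 and 95.6 CPM in the KO libraries, against 171 and 168 CPM in the WT libraries, a log2 fold change of -0.36 ± 0.20 and adjusted p = 0.232, and the GC correction put it at 0.35 (adjusted p = 0.0176). The 3 KO libraries differed strongly in tilt, 0.36, -0.34 and -1.15, while the 2 WT libraries had 0.57 and 0.52. With only the 2 groups in the fit, 3 against 2 libraries, 0 members were called. The share of all genes called in that fit, and in the fits without 1 library, is not given. Without WT both-antibody replicate 3 the count was 0 and without replicate 2 it was 2, in fits where the lone WT library is assumed to vary like the other groups. With both antibodies the genotypes also did not overlap in summed markers, at 1819 to 1983 CPM in KO libraries and 2107 to 2112 CPM in WT libraries for CD8 T cell markers, 1.23 to 1.89 CPM in KO libraries and 3.22 to 3.52 CPM in WT libraries for CD4 T cell markers, and 3.16 to 3.82 CPM in KO libraries and 4.21 to 5.34 CPM in WT libraries for dendritic cell markers, and their part in these results was not tested.

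**Figure D4:**
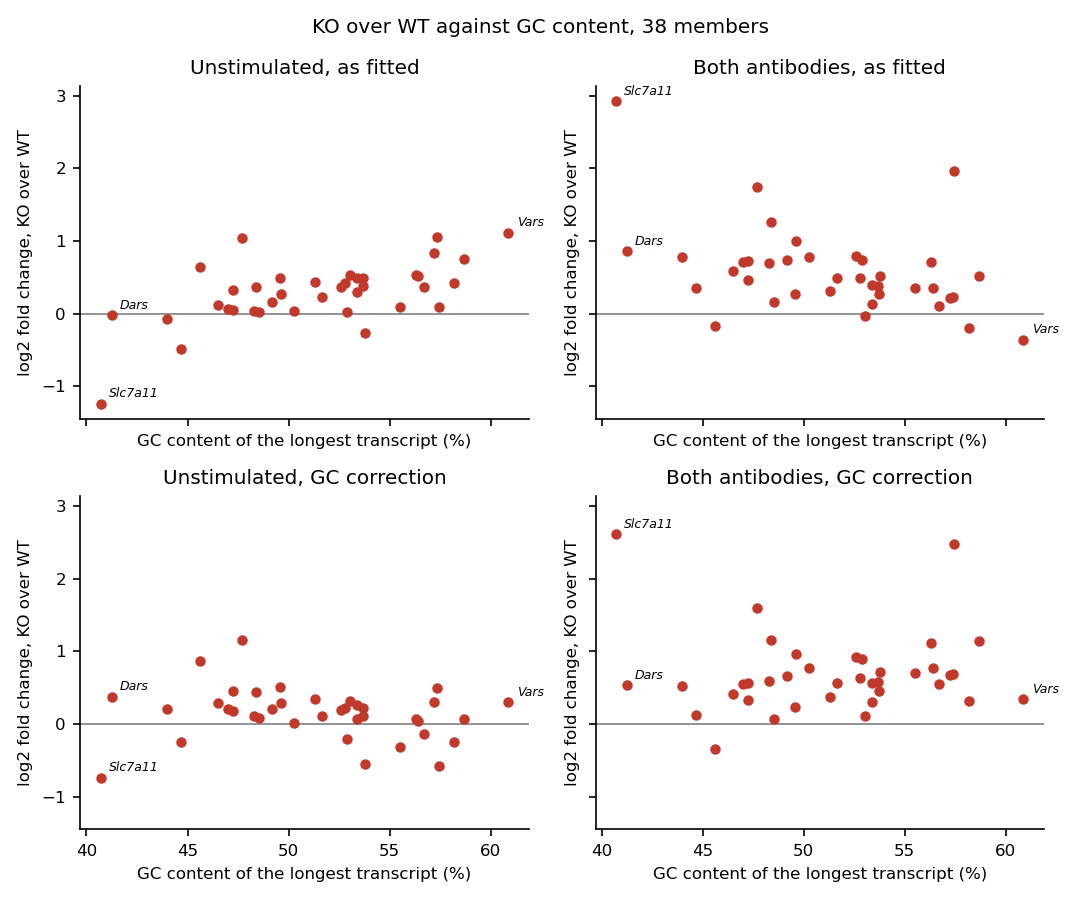
Log2 fold change of KO over WT cells (vertical) against GC content of the longest transcript in % (horizontal) for the 38 members, unstimulated on the left and both antibodies on the right, as fitted above and GC-corrected below. As fitted the points climb with GC content without stimulation (Pearson 0.60) and descend with both antibodies (-0.44), and with the correction the values are -0.18 and 0.01.

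Cells given anti-CD3 for 12 h were set against unstimulated cells of the same genotype, headed D0. Without unstimulated cells labelled 12 h, the antibody and the elapsed time cannot be told apart. Response here means the whole change, and the same limit holds for both antibodies and for the interactions. In KO cells 30 members rose and 0 fell, where 36.9% of all genes tested were called, 19.6% higher and 17.3% lower. In WT cells 22 rose and 1 fell, where 24.4% of all genes tested were called, 11.3% higher and 13.1% lower. With the GC correction 34 rose and 1 fell in KO cells, where 43.3% of all genes tested were called, 22.6% higher and 20.7% lower, and 27 rose and 1 fell in WT cells, where 33.4% of all genes tested were called, 16.3% higher and 17.2% lower. By role, those that rose in KO cells as fitted were 7 of 8 transporters, 5 of 6 synthesis enzymes, 4 of 5 one-carbon enzymes, 3 of 5 of the ATF4 group and 11 of 14 synthetases. The member median was 0.87 in KO cells and 0.46 in WT cells on the log2 scale. Asns, whose CARE core is printed above, had the largest log2 fold change of the members in either genotype. It had 16.6, 14.6 and 22.4 CPM in KO cells given anti-CD3, against 0.618, 0.562 and 0.453 CPM in KO unstimulated cells. In WT cells it had 5.80, 6.49 and 7.91 CPM given anti-CD3, against 0.292, 0.228 and 0.283 CPM without stimulation. The stimulated ranges lay far above the unstimulated ranges, by 5.01 ± 0.29 in KO cells (adjusted p = 1.26e-09) and 4.64 ± 0.34 in WT cells (adjusted p = 2.25e-08). Unstimulated libraries held only 11, 85 and 7 Asns counts in KO cells and 9, 6 and 5 in WT cells, so the size of these changes is uncertain. Shmt1 rose by 2.29 ± 0.14 in KO cells and 1.63 ± 0.14 in WT cells, Slc1a4 by 2.61 ± 0.30 in KO and 1.74 ± 0.31 in WT cells, and Trib3 by 2.07 ± 0.33 in KO and 1.89 ± 0.35 in WT cells. Chac1 had 0, 7 and 1 counts in KO and 3, 0 and 0 counts in WT unstimulated libraries, so its log2 fold changes rest on few reads and no fold is given. Slc7a5 rose by 1.50 ± 0.13 in KO cells and 0.95 ± 0.13 in WT cells.

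As fitted, Psph, Mthfd1l, Atf4, Ddit3, Dars and Sars were called in neither genotype with anti-CD3, Slc38a2 and Vars in WT but not KO cells. The GC correction changed this in KO cells. There all 5 genes of the ATF4 group were called, 4 higher and 1 lower, and all 5 one-carbon enzymes were called higher. Atf4, Ddit3 and Mthfd1l are thus uncalled in KO cells only without the correction. Slc38a2 fell in WT cells, to 252, 240.0 and 244 CPM with anti-CD3, against 329.8, 337 and 317 CPM without stimulation. These did not overlap, and the log2 fold change was -0.42 ± 0.09 (adjusted p = 0.00303). In KO cells it was 0.07 ± 0.09, adjusted p = 0.591. Ddit3 had log2 fold changes of -0.40 ± 0.16 in KO cells and -0.27 ± 0.17 in WT cells with anti-CD3, neither past the threshold as fitted. With both antibodies it fell in KO cells by 0.63 (adjusted p = 0.00577). It had 13.7, 11.1 and 7.97 CPM in KO cells given both antibodies, against 15.2, 19.9 and 15.3 CPM in unstimulated KO cells. With anti-CD3, Atf4 mRNA had 0.13 ± 0.11 in KO cells and -0.22 ± 0.11 in WT cells. Psph had 0.05 ± 0.11 in KO and 0.13 ± 0.12 in WT cells, and none of these was called as fitted. Mthfd1l stood at 0.16 ± 0.10 in KO cells and -0.22 ± 0.10 in WT cells, also not called as fitted. Summed markers of B, myeloid, dendritic and NK cells were lower in libraries given anti-CD3 than in unstimulated libraries of the same genotype. Those of CD4 T cells, and of erythroid cells and platelets, overlapped between these states. In WT cells given both antibodies the CD4 T cell markers summed higher, at 3.22 to 3.52 CPM, against 2.15 to 2.92 CPM without stimulation. In KO cells they summed lower, at 1.23 to 1.89 CPM with both antibodies, against 2.91 to 3.20 CPM without stimulation. The 6 B cell markers summed to 8.10 to 9.69 CPM in KO libraries and 7.00 to 9.56 CPM in WT libraries given anti-CD3, against 19.0 to 27.2 CPM in KO libraries and 17.2 to 20.2 CPM in WT libraries without it. The 5 dendritic cell markers summed to 3.73 to 4.28 CPM in KO libraries and 4.02 to 5.84 CPM in WT libraries given anti-CD3, against 9.26 to 11.8 CPM in KO libraries and 7.30 to 8.40 CPM in WT libraries without it. The 4 NK cell markers summed to 1.07 to 1.45 CPM in KO libraries and 0.740 to 2.52 CPM in WT libraries given anti-CD3, against 4.22 to 5.17 CPM in KO libraries and 4.15 to 6.27 CPM in WT libraries without it. The CD8 T cell markers also summed lower, 1904 to 2002 CPM in KO libraries and 2039.9 to 2079.8 CPM in WT libraries given anti-CD3, against 3407 to 3798 CPM in KO libraries and 3224 to 3286 CPM in WT libraries without it. No B, dendritic or NK marker was at 0 in every library, and the part of these cells in the results was not tested.

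Both antibodies together, against the same unstimulated libraries, gave 27 members higher and 1 lower in KO cells, where 45.4% of all genes tested were called, 23% higher and 22.5% lower. In WT cells 23 were higher and 2 lower, where 34.1% of all genes tested were called, 17.8% higher and 16.3% lower. With the GC correction 32 were higher and 1 lower in KO cells, where 43.6% of all genes tested were called, 20.2% higher and 23.4% lower, and 22 were higher and 3 lower in WT cells, where 32.1% of all genes tested were called, 17.9% higher and 14.2% lower. These comparisons share the unstimulated libraries with those of anti-CD3. The lower member in KO cells was Ddit3, and those in WT cells were Slc38a2 and Dars. Dars had 70.8 and 75.4 CPM in WT cells given both antibodies, against 138, 103 and 98.7 CPM in WT unstimulated cells, with a log2 fold change of -0.63 ± 0.18 (adjusted p = 0.0134), or -0.34 with the GC correction (adjusted p = 0.0587). These libraries did not overlap. Mthfd2 rose by 1.25 ± 0.13 in KO cells and 0.52 ± 0.15 in WT cells. Of the 25 WT calls in either direction the count was 13 without WT both-antibody replicate 3.

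**Figure D5:**
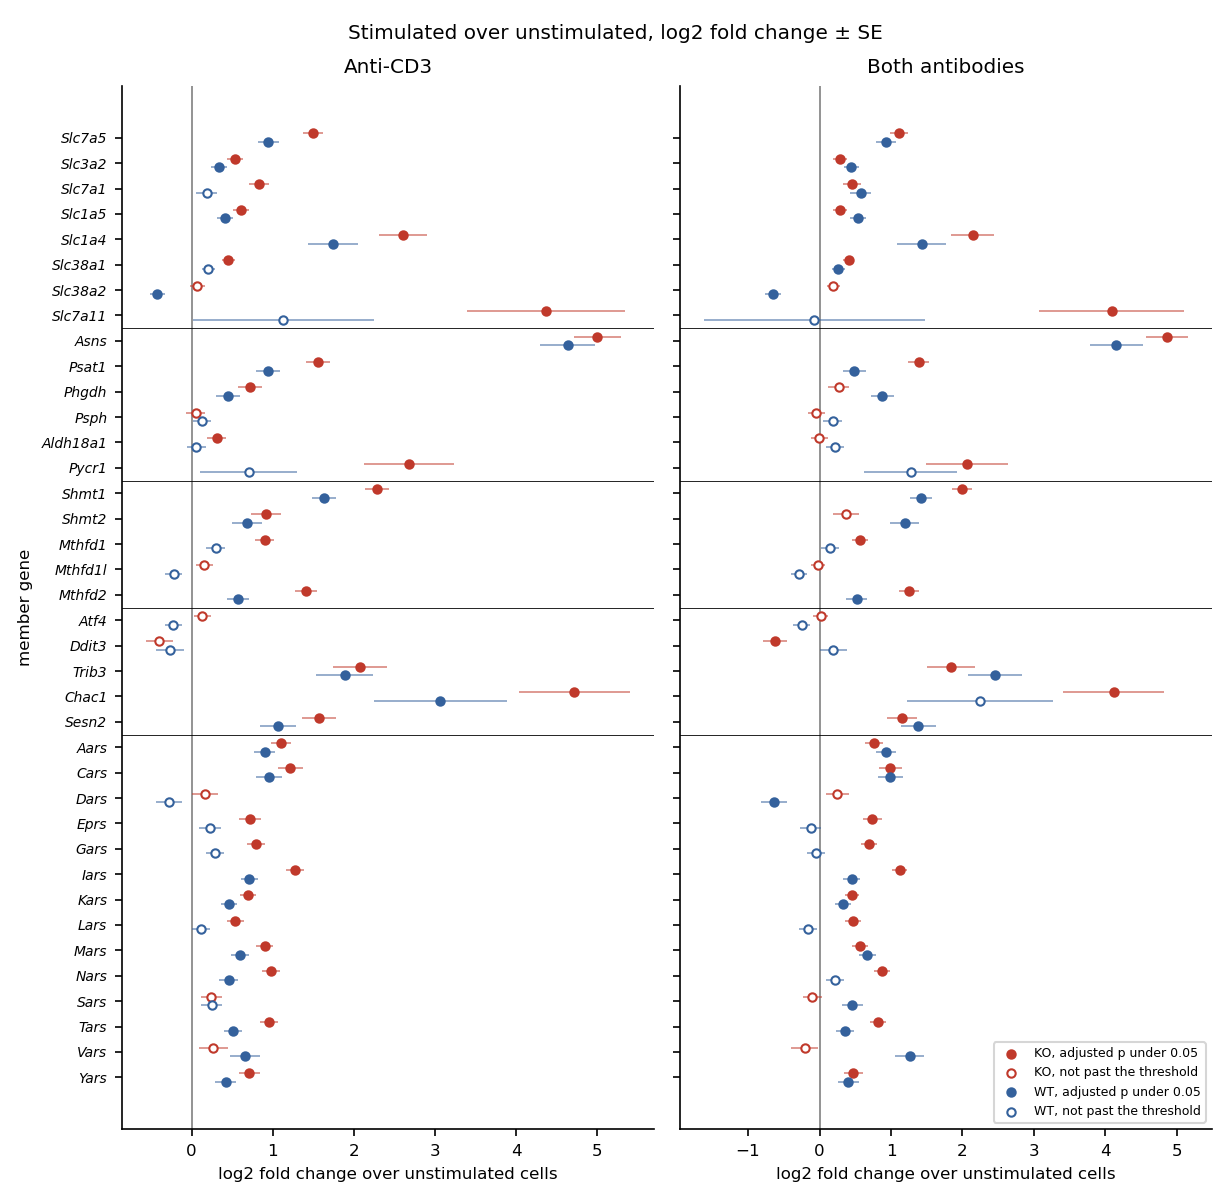
Log2 fold change of stimulated over unstimulated cells ± SE for each member, with anti-CD3 on the left and both antibodies on the right, KO in red and WT in blue, and filled points for adjusted p under 0.05. Asns lies at 5.01 in KO and 4.64 in WT cells with anti-CD3, and the KO point is to the right of the WT point for most members in that panel.

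Whether anti-CD28 changed the members was asked by setting both antibodies against anti-CD3 alone. By edgeR's test 0 members passed in either genotype, and 0% of all genes did. At an unadjusted p under 0.05 there were 15 members in KO cells, all lower with both antibodies, and 11 in WT cells, 5 higher and 6 lower, while 8.99% of all genes in KO cells and 21.6% in WT cells were under that level. Limma voom called 16 members in KO cells, where it called 34.2% of all genes, and 16 in WT cells, where it called 37.3%. In KO cells Slc7a5 had 85.9, 83.6 and 80.4 CPM with both antibodies, against 99.0, 98.8 and 129 CPM with anti-CD3. These did not overlap, with a log2 fold change of -0.39 ± 0.13 and adjusted p = 0.547. Phgdh had 100.4, 93.8 and 71.5 CPM with both antibodies, against 114, 105 and 144 CPM with anti-CD3 in KO cells, a log2 fold change of -0.45 ± 0.14 and adjusted p = 0.547. Over the 38 members the KO log2 fold changes had a Pearson correlation with GC content of -0.71, and 0.33 with the correction. In WT cells Vars had 171 and 168 CPM with both antibodies, against 124, 109 and 102 CPM with anti-CD3, at 0.60 ± 0.20 and adjusted p = 0.159. The GC-corrected value was -0.18.

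The interaction of genotype and stimulation tests whether KO and WT cells responded differently. For anti-CD3 0 members passed by edgeR, where 0.0554% of all genes tested were called, 0.0492% higher and 0.00616% lower. At an unadjusted p under 0.05 there were 17 members, all with a positive difference (the log2 response in KO cells minus that in WT cells), against 14.8% of all genes in either direction, and the member median was 0.40. Mthfd2 came closest, with a difference of 0.84 ± 0.19 between the log2 responses and adjusted p = 0.0977. DESeq2 called 2 members, against 1.78% of the genes to which it gave an adjusted p, and limma voom called 17, against 5.65% of all genes. The GC-corrected fit called 10 members, all with a positive difference, where 2.39% of all genes tested were called, 1.72% higher and 0.677% lower. Those 10 were Slc7a5, Slc7a1, Slc38a2, Phgdh, Mthfd1, Mthfd2, Gars, Iars, Mars and Nars. For both antibodies the difference was positive for 11 members and negative for 5, where 37.5% of all genes tested were called, 18.3% higher and 19.2% lower. After the GC correction 13 were positive and 1 negative, where 15% of all genes tested were called, 5.96% higher and 9.09% lower. Slc38a2 had a log2 response to both antibodies of 0.19 ± 0.09 in KO cells and -0.65 ± 0.11 in WT cells, a difference of 0.84 ± 0.14 (adjusted p = 0.00339, or 0.0159 with the correction). Psat1 responded by 1.39 ± 0.15 in KO cells and 0.49 ± 0.16 in WT cells, a difference of 0.90 ± 0.22 (adjusted p = 0.00625). Vars differed by -1.47 ± 0.27 (adjusted p = 0.00368) as fitted and by 0.04 with the correction (adjusted p = 0.864).

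Genes of the same pathways outside the 38 were taken from lists chosen with earlier results in view, and are given by their counts in KO against WT cells with anti-CD3, to be read beside the 10.5% of all genes called higher there. Values in parentheses are log2 fold changes ± SE. Of 19 other folate and purine genes 9 were higher and 0 lower, with a median of 0.59. Among them were Gart, a trifunctional purine enzyme (0.83 ± 0.10, adjusted p = 8.07e-05), Pfas, another step of purine synthesis (0.87 ± 0.12, adjusted p = 0.000172), and Slc19a1, the reduced folate carrier (1.15 ± 0.17, adjusted p = 0.000329). Of 25 other genes of amino acid and polyamine metabolism 9 were higher and 1 lower. Bcat1, the cytosolic branched-chain aminotransferase, was 79.4 ± 11.1 CPM in KO libraries and 34.0 ± 1.29 CPM in WT libraries given anti-CD3 (1.22 ± 0.13, adjusted p = 2.85e-05). Srm, spermidine synthase, was 80.2 ± 17.5 CPM in KO libraries and 31.9 ± 2.73 CPM in WT libraries (1.33 ± 0.16, adjusted p = 9.22e-05). Cth, which makes cysteine from cystathionine, had 37 to 149 counts in KO cells and 3 to 9 in WT cells, with a log2 fold change of 3.78 ± 0.62, adjusted p = 0.00111. The lower gene was Mat2b, the regulatory subunit of methionine adenosyltransferase (-0.29 ± 0.09, adjusted p = 0.0298). Its largest adjusted p in the alternative fits was 0.128.

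Of 15 other transporters tested, from 19 listed, 4 were higher and 0 lower, led by the glycine carrier Slc6a9 (1.71 ± 0.39, adjusted p = 0.00664). Slc6a9 was scarce, with 32 to 131 counts in KO and 17 to 30 in WT libraries given anti-CD3. In the alternative fits the largest adjusted p was 0.0747 for Slc6a9 and 0.0684 for Atf3, described next. Of 10 other stress response genes tested, from 13 listed, 5 were higher and 0 lower, including Atf3 (1.58 ± 0.38, adjusted p = 0.0105) and Eif4ebp1, the translation repressor 4E-BP1 (1.12 ± 0.18, adjusted p = 0.000729). Of 9 other cytosolic charging genes 6 were higher and 0 lower, among them Aimp2, a scaffold of the multisynthetase complex (0.91 ± 0.14, adjusted p = 0.000553). Of the mitochondrial synthetases 2 of 17 were higher, and of the sensing machinery 1 of 22, with median log2 fold changes of 0.15 and 0.02. In WT cells given anti-CD3, against unstimulated WT cells, Bcat1 rose by 4.70 ± 0.17, adjusted p = 1.98e-12, and Wars, the tryptophanyl enzyme known to be induced by interferon-gamma, rose by 2.99 ± 0.14, adjusted p = 5.22e-11. Wars was 311 ± 13.5 CPM in KO cells and 307 ± 25.4 CPM in WT cells given anti-CD3. Of the 10 stress response genes 4 rose and 5 fell in this WT comparison, where 11.3% of all genes were called higher and 13.1% lower. Ddit4, an inhibitor of mTORC1 signalling (-2.43 ± 0.19, adjusted p = 4.98e-08), fell to 6.32 ± 1.51 CPM with anti-CD3, against 33.6 ± 4.08 CPM without stimulation, and Ppp1r15a, the phosphatase subunit that reverses eIF2-alpha phosphorylation (-1.96 ± 0.17, adjusted p = 2.51e-07), fell to 37.4 ± 3.03 CPM, against 145 ± 30.9 CPM.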

How the data were processed

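Total RNA of CD8+ T cells, depleted of ribosomal RNA, was made into libraries with a stranded kit and sequenced from both ends, per the labels' protocols. The authors deposited whole-number read counts per gene and library, and the submitters' processing notes name STAR 2.5.2, RSEM 1.3.0 and the build GRCm38 (mm10). The annotation release, the strand setting of counting and any rounding were not given in the sources used here. A GENCODE annotation of GRCm38 matched 53650 identifiers.

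The deposited counts went into edgeR 4.0.16 (R 4.3.3) unchanged, with TMM scaling, filterByExpr by group and robust quasi-likelihood fits of all 17 libraries with 1 coefficient per group. P-values of 11 contrasts were adjusted by Benjamini-Hochberg over the 16246 genes tested. The members and lists were chosen with earlier results of these data known. Every member is reported, and of each other list up to 4 genes per direction with the smallest adjusted p in KO against WT cells given anti-CD3 and in WT cells given anti-CD3 against unstimulated ones; in the text a subset of those is described. The Ddit3 identifier with the longer exons was used of 2. Where exons of genes overlap, strand decides how reads are divided.

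Alternatives were RLE scaling, DESeq2 1.42.0, voom of limma 3.58.1 with sample weights, either no filter or a minimum of 1 CPM in 3 libraries, models of the compared groups alone, a GC correction (loess of log2 CPM on GC content per library, span 0.3), the fit without the 2 libraries of most extreme GC trend, a replicate block, that block with the GC correction, and leaving out each library. Motifs were matched in RefSeq promoter windows of 300 bases. Some motif sequences are not reported here. Depth limits precision most for Slc7a11, Chac1 and Pycr1. Figures were drawn with matplotlib 3.10.9.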

Additional observations from a re-analysis of the deposited data

Results flagged for a closer look

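As fitted, the response to both antibodies differed between KO and WT cells for 16 of 38 members. The test was the interaction term of edgeR's quasi-likelihood fit, with Benjamini-Hochberg adjustment. That fit called 37.5% of all genes, so its count is near the background and is no result about the members as a group. With the GC correction the difference was positive for 13 members and negative for 1, where 15% of all genes were called, 5.96% higher and 9.09% lower. Values are the log2 response in KO cells minus that in WT cells, and their sign does not say which response was larger in size. For 7 of the 16 members the difference was also called with the GC correction. The difference was positive for Slc38a2 (0.84 ± 0.14), Psat1 (0.90 ± 0.22), Mthfd2 (0.73 ± 0.20), Gars (0.74 ± 0.17), Iars (0.67 ± 0.16) and Nars (0.66 ± 0.17), and negative for Ddit3 (-0.82 ± 0.25).

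For the other 9 the difference was not called with the GC correction. Of these it was positive for Shmt1 (0.57 ± 0.21), Dars (0.88 ± 0.24), Eprs (0.86 ± 0.20), Lars (0.63 ± 0.17) and Tars (0.46 ± 0.17). It was negative for Phgdh (-0.61 ± 0.22), Shmt2 (-0.82 ± 0.27), Sars (-0.56 ± 0.19) and Vars (-1.47 ± 0.27). The corrected difference was 0.04 for Vars and 0.15 for Dars.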

How the results depend on the processing

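The counts below show how calls moved between fits. The share of all genes called moved between fits too and is given only for some. These counts, and those without 1 library above, are therefore no result about the members as a group. Member counts called in KO against WT cells given anti-CD3 stayed at 31 to 36 in the alternatives that kept all libraries. They ran from 22 to 35 when 1 library was left out. In unstimulated cells the 18 calls became 8 with the GC correction and 11 with the replicate block and GC correction together, and 4 to 20 without 1 library. With both antibodies the 18 calls became 32 with limma voom, 0 with only the groups compared, 28 with the GC correction, 30 with the replicate block and GC correction, and 0 to 22 without 1 library. The counts of stimulated against unstimulated cells ranged without 1 library from 18 to 25 (anti-CD3, WT), 28 to 32 (anti-CD3, KO), 13 to 26 (both antibodies, WT) and 24 to 31 (both antibodies, KO). Both antibodies against anti-CD3 had 0 calls as fitted. In WT cells there were 16 with limma voom, which called 37.3% of all genes there, and 15 with only the groups compared. There were 6 in WT cells without the 2 libraries of most extreme GC trend and 0 to 2 without 1 library. In KO cells there were 16 with limma voom, which called 34.2% of all genes there, and 0 to 1 without 1 library. The interaction with anti-CD3 had 0 calls, 2 with DESeq2, 17 with limma voom, 1 with no filter, 5 with only the groups compared, 10 with the GC correction, 3 without the 2 libraries of extreme GC trend, 15 with the replicate block and GC correction, and 0 to 5 without 1 library; that with both antibodies had 16, and 10 to 17 without 1 library.

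Log2 fold changes that changed sign with the GC correction, and with the block added, were Slc1a5 in unstimulated KO against WT cells (-0.138 and -0.143), Vars in KO against WT cells given both antibodies (0.347 and 0.375), and Aldh18a1 (0.268 and 0.271) and Vars (0.440 and 0.441) in KO cells given both antibodies against unstimulated ones. In the interaction with both antibodies they were Slc1a5 (0.688 and 0.722), Phgdh (0.379 and 0.427), Shmt2 (0.187 and 0.223), Sesn2 (1.07 and 1.12), Aars (0.723 and 0.774) and Vars (0.0442 and 0.0771). The cause was not tested.

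Same-numbered replicates of different groups had correlations of -0.18 to 0.29 over 40 pairs, with 3 over 0.1, and the numbers were not taken as pairs. This range pools pairs within a genotype with pairs across genotypes, so it cannot tell whether numbers pair libraries within a genotype. The replicate block shares each number across KO and WT cells, and pairing within a genotype was not tested. The replicate block alone gave 18, 33 and 20 members in the KO against WT comparisons and changed no count by more than 1.5 times. Replicates of a group differed by more than sampling noise. Depth limits Slc7a11, Chac1 and Pycr1.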
